A study of Mus musculus with 4 samples.

Results

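Genes of DNA replication and of nucleotide supply were examined in splenic regulatory T (Treg) cells with and without the H3K36 methyltransferase Setd2. The 45 genes were chosen by name and kept where the FPKM (fragments per kilobase of gene, scaled to the reads of the library) was at least 1 in at least 2 of the 4 libraries. All 45 were found among the 24087 rows of the deposited table and all 45 were kept, so the level threshold left out none of them. The weakest was Orc1, whose second-highest FPKM of 1.88 lay nearest to the threshold, and no gene of the list lay below it. The names were picked with earlier results of these data known, so their counts are given beside those of all genes and no test of the list as a whole is made.

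Treg cells were sorted from the spleen as CD3+CD4+YFP+ cells from C57BL/6 mice at steady state. In the KO group both Setd2 alleles were floxed (Foxp3Cre-YFPSetd2f/f), and in the CTRL group, made of littermates, 1 allele was floxed (Foxp3Cre-YFPSetd2f/+). Both groups carried Foxp3Cre-YFP, which drives Cre and the YFP used for sorting from the Foxp3 locus, so that the CTRL cells had a floxed allele open to deletion and were not wild type. There were 2 libraries per group, named CTRL 1, CTRL 2, KO 1 and KO 2, each from about 1000000 cells, pooled from 2 mice by the series description, although the methods of the study allow for more mice in a pool. The labels gave no age.

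DNA replication starts when the origin recognition complex, with Cdc6 and Cdt1, loads the MCM2-7 helicase onto origins in G1. In S phase Cdc45 and the GINS complex join the helicase, the primase and the polymerases copy the strands, the sliding clamp Pcna holds the polymerases on DNA, and ribonucleotide reductase with the thymidylate enzymes supplies the deoxynucleotides. Many of these genes are known targets of E2F transcription factors and are expressed mainly in dividing cells, and Treg cells of the spleen hold a dividing fraction at steady state.

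The relation between the list and E2F was described first at the level of sequence. RefSeq windows of 300 bases on GRCm38.p6, from 250 bases before to 50 bases after the start site, were found for 36 of the 45 genes, and the other 9 were not analysed here for sequence. The E2F-like letters TTTCCCGC or TTTGGCGC, on either strand, occurred in the windows of 11 of these 36 genes (30.6%), against 325 of the 8873 tested genes with a window (3.66%) and 514 of all 32851 windows (1.56%). In 6 of the 11 genes (Cdc6, Mcm5, Mcm6, Mcm7, Pola1 and Gins3) the letters lay before the start site, and in the other 5 (Cdt1, Mcm3, Pold1, Pole2 and Rfc3) at or after it. The stretches before the start sites of Mcm5, Mcm6 and Pola1 are shown because they hold these letters and no annotated exon, and because the first 2 genes passed the test described below while Pola1 did not. They are on GRCm38.p6 at chr8:75109329-75109508 (plus strand), chr1:128359706-128359885 (minus strand) and chrX:93632156-93632335 (minus strand), and the capitals mark the E2F-like letters.
Mcm5: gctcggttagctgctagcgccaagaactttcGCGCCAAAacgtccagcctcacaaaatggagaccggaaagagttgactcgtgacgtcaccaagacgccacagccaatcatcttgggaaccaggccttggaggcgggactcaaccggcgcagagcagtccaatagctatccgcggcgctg
Mcm6: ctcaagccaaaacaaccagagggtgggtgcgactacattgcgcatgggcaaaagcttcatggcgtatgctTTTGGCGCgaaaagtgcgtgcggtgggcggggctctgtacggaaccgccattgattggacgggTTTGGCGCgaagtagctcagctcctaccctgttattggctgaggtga
Pola1: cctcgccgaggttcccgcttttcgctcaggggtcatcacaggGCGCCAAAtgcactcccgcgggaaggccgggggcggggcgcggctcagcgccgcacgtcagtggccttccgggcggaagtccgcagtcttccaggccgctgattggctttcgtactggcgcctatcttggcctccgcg

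In Mcm5 and Pola1 the match stood 149 and 138 bases before the start site, read on the opposite strand, and Mcm6 held 2 matches, 110 and 47 bases before it. CCAAT, the letters bound by NF-Y, occurred on either strand in 23 of the 36 genes (63.9%) against 43.3% of tested genes with a window. TTTGAA, the core of the cell cycle homology region known from mitotic promoters, occurred on either strand in 5 of the 36 (13.9%) against 14.4%. None of the letter strings searched contains another. The E2F-like letters were found in 6 of 17 genes that passed the test below (35.3%) and in 5 of 19 that did not (26.3%). These matches describe the letters in the windows and do not show binding.

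Setd2 (ENSMUSG00000044791, chr9:110532597-110618633 on GRCm38), the targeted gene, was at 23.4 (CTRL 1), 25.3 (CTRL 2), 21.3 (KO 1) and 19.5 (KO 2) FPKM. The KO libraries held the 2 lowest values, with a log2 fold change of -0.24 ± 0.076 (SE) and a limma adjusted p of 0.0970, which did not pass 0.05. The part of the gene that Cre removes was not given in the sources used here, and these values cover reads over the whole gene, so they check the labels only weakly. The libraries held at least 29988267 to 32686764 reads, recovered from the steps of the FPKM values, and 11399 genes passed the level filter and were tested. The Treg markers (Foxp3, Il2ra, Ikzf2, Ikzf4, Ctla4, Tnfrsf18 and Lrrc32) summed to 1199 to 1337 FPKM in the 4 libraries, with no marker at 0.

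In KO Treg cells 19 of the 45 genes rose and none fell at an adjusted p under 0.05 in limma on log2(FPKM + 1), against 5.1% of all genes tested that were higher and 4.65% that were lower. They were Cdc6 and Cdt1 of origin licensing, all 6 MCM2-7 subunits with Mcm10, Cdc45 and Gins2, the single-strand binding subunit Rpa2, the Okazaki fragment enzymes Fen1 and Lig1, both CAF-1 subunits Chaf1a and Chaf1b, and Rrm1, Rrm2 and Tk1 of nucleotide supply. The ratio of mean FPKM, KO over CTRL, ran from 1.31 in Mcm2 to 2.35 in Cdc6 among the 19 genes, and their adjusted p from 0.0299 to 0.0466. The count was 12 when the variance trend was left out of the fit (Mcm2, Cdc45, Gins2, Fen1, Lig1, Chaf1a and Tk1 did not pass) and 0 when weak genes were kept in it. Without adjustment, 32 genes were higher and 1, Orc2, was lower at p under 0.05 in limma. Of all 11399 genes tested, 1855 were higher and 2099 lower at that p. Over all 45 genes the median log2 fold change was 0.37, with the middle of the list between 0.23 and 0.59, against a median of -0.022 over all genes tested.

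Both KO libraries lay above both CTRL libraries in 38 of the 45 genes, against 29.0% of all genes tested, and below in 3 (Orc2, Rfc1 and Gins3), against 35.5%. In the other 4 the groups overlapped. The FPKM of the list summed to 1029 and 914 in CTRL 1 and CTRL 2 and to 1300.2 and 1293 in KO 1 and KO 2, and these sums were 0.220%, 0.196%, 0.277% and 0.273% of all FPKM. The KO sum was 1.33 times the CTRL sum, and 1.38 times without Pcna, the most abundant gene of the list. In bulk RNA more dividing cells and more transcript per cell cannot be told apart.

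**Figure D1:**
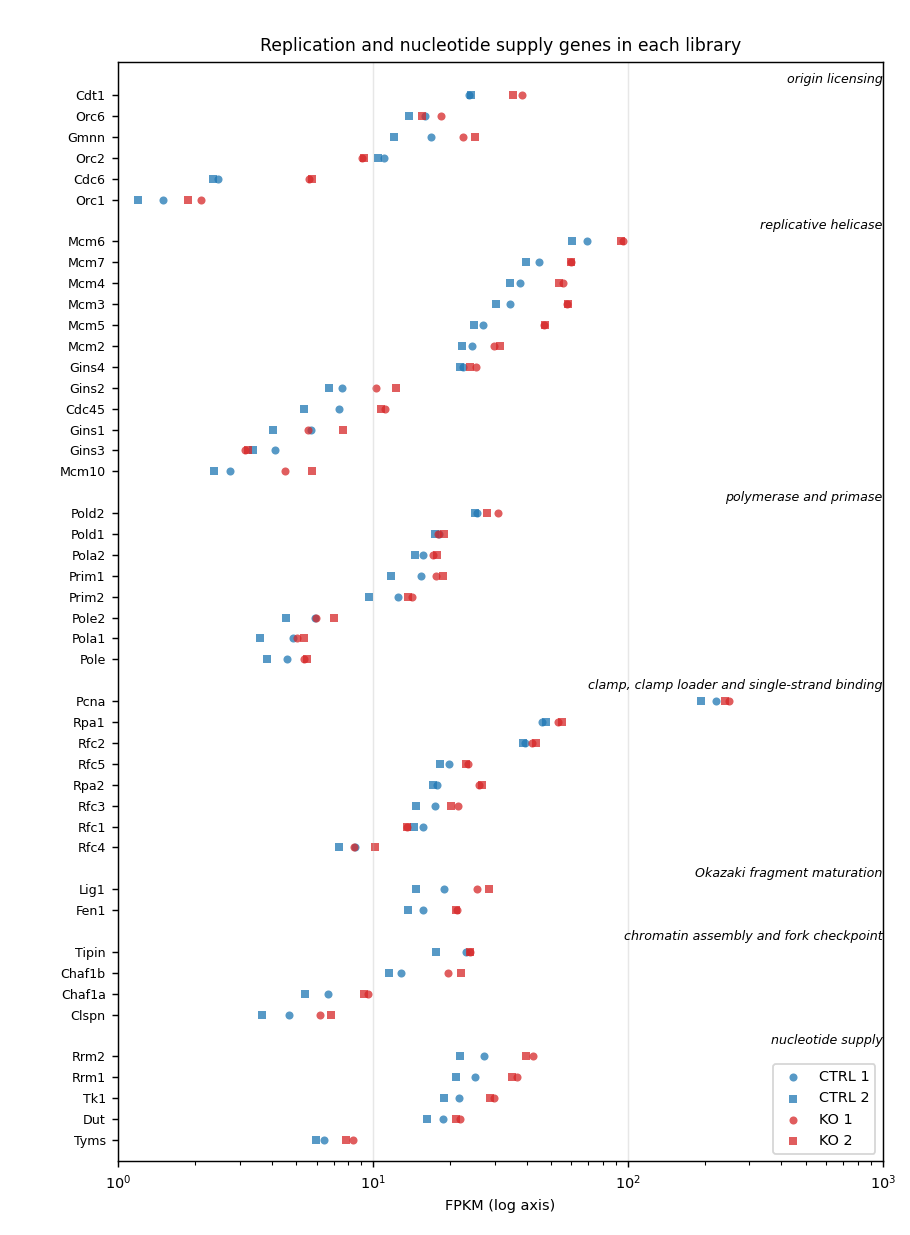
FPKM (x axis, log scale) of the 45 replication and nucleotide supply genes in each of the 4 libraries, grouped by role, with CTRL in blue and KO in red and a circle or square for library 1 or 2. Pcna stands alone above 100, and the MCM2-7 rows show both red points to the right of both blue points.

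**Figure D2:**
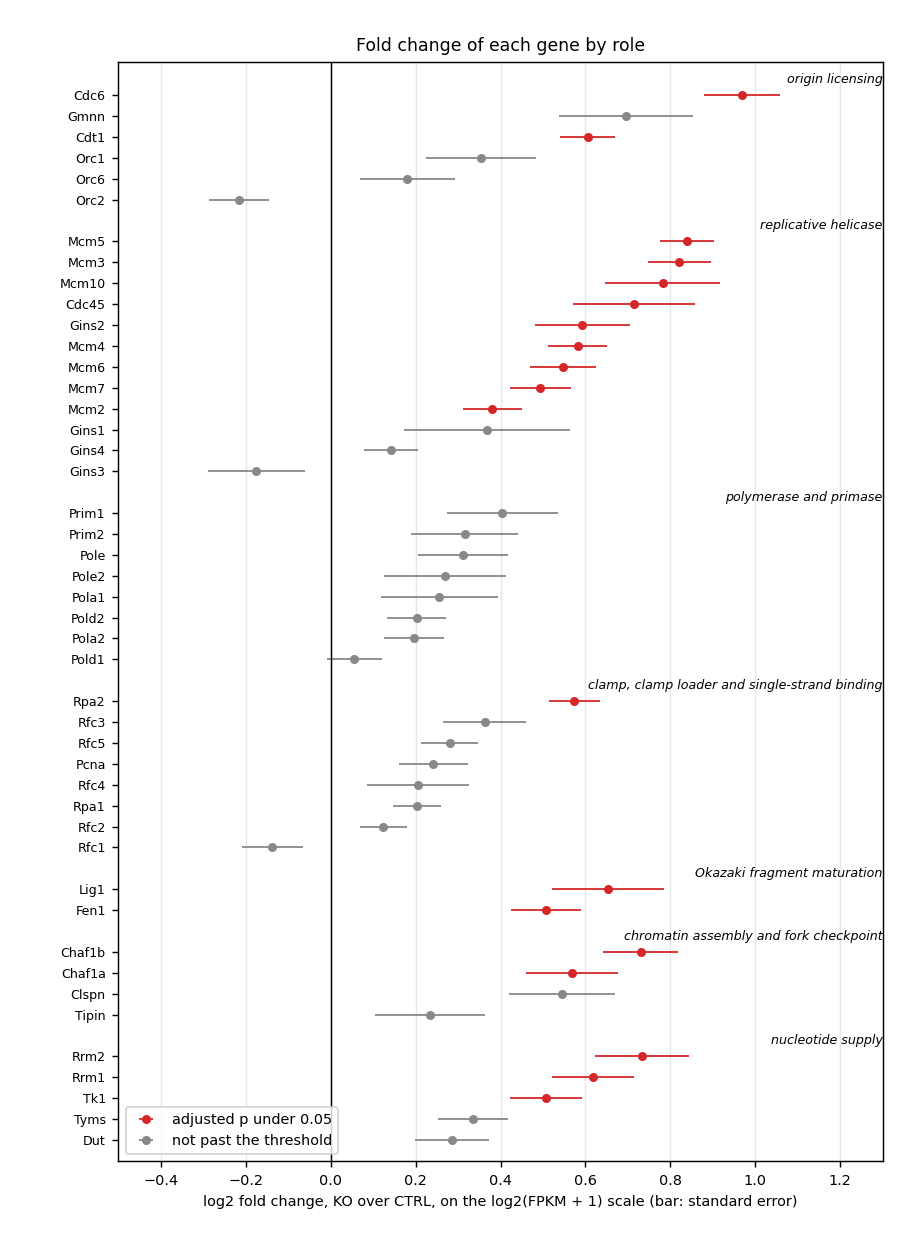
Log2 fold change of KO over CTRL on the log2(FPKM + 1) scale (points) with its standard error (bars) for the 45 genes by role. The 19 red genes passed an adjusted p of 0.05, 9 of them helicase genes, and Orc2, Gins3 and Rfc1 are the points left of 0.

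Of the 6 origin licensing genes, 2 rose, against 5.1% of all genes tested, and the median log2 fold change was 0.48. Cdc6 (ENSMUSG00000017499, chr11:98907801-98923940), the ATPase that loads the helicase together with the origin recognition complex, was at 2.46 (CTRL 1), 2.36 (CTRL 2), 5.60 (KO 1) and 5.75 (KO 2) FPKM. The lower KO library stood 2.27 times above the higher CTRL library, the widest separation among the 45 genes, with a log2 fold change of 0.97 ± 0.089 (SE, adjusted p = 0.0299). Cdt1 (chr8:122568015-122573554), its partner in loading, was the most abundant licensing gene at 23.8 (CTRL 1), 24.2 (CTRL 2), 38.5 (KO 1) and 35.5 (KO 2) FPKM, and rose by 0.61 ± 0.065 (SE) on the log2 scale (adjusted p = 0.0319). Gmnn, whose protein geminin inhibits Cdt1, was at 16.8 (CTRL 1), 12.1 (CTRL 2), 22.5 (KO 1) and 25.1 (KO 2) FPKM. Its groups did not overlap, but CTRL 1 was 1.39 times CTRL 2, and its change of 0.70 ± 0.16 (SE) had an adjusted p of 0.0555.

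The subunits of the origin recognition complex had changes of both signs. Orc1, the gene nearest to the level threshold, was at 1.50 (CTRL 1), 1.20 (CTRL 2), 2.11 (KO 1) and 1.88 (KO 2) FPKM, without overlap of the groups and with a log2 fold change of 0.35 ± 0.13 (SE, adjusted p = 0.127). Orc2 was at 11.0 (CTRL 1), 10.5 (CTRL 2), 9.02 (KO 1) and 9.19 (KO 2) FPKM, both KO libraries lying below both CTRL libraries, with a log2 fold change of -0.22 ± 0.071 (SE, adjusted p = 0.104). Of the exon length of Orc2, 29.8% is shared with Nif3l1 on the opposite strand, whose own log2 fold change was 0.26, and the use of strand in the counting was not stated. Orc6 overlapped between the groups, at 15.9 and 13.9 FPKM in the CTRL libraries and 18.5 and 15.6 FPKM in the KO libraries. The remaining subunits Orc3, Orc4 and Orc5, which are not on the list, had log2 fold changes of -0.30, -0.30 and -0.10, and none of the 6 subunits passed the threshold (adjusted p = 0.0553 for Orc3, the lowest). Their median was -0.16.

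The median log2 fold change of the 12 helicase genes was 0.56. Of them 9 rose, with limma adjusted p between 0.0299 and 0.0464, against 5.1% of all genes tested. All 6 subunits of MCM2-7, the ring that unwinds the parental strands, were among them. Mcm5 (ENSMUSG00000005410, chr8:75109569-75128439), whose promoter is shown above, was at 26.9 (CTRL 1), 24.9 (CTRL 2), 46.9 (KO 1) and 47.5 (KO 2) FPKM, and its means were 25.9 ± 1.41 in CTRL and 47.2 ± 0.382 in KO (SD, n = 2). Mcm3 (chr1:20802968-20820312) was at 34.3 (CTRL 1), 30.4 (CTRL 2), 57.6 (KO 1) and 58.1 (KO 2). In both genes the KO libraries agreed within 0.540 FPKM, and the lower of them stood 1.74 times (Mcm5) and 1.68 times (Mcm3) above the higher CTRL library, with log2 fold changes of 0.84 ± 0.063 and 0.82 ± 0.075 (SE).

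Mcm6 (chr1:128331590-128359664), the most abundant subunit, was at 68.9 (CTRL 1), 60.4 (CTRL 2), 95.7 (KO 1) and 93.8 (KO 2) FPKM, with a log2 fold change of 0.55 ± 0.078 (SE). Mcm4 was at 37.9 (CTRL 1), 34.6 (CTRL 2), 55.8 (KO 1) and 53.5 (KO 2) FPKM and Mcm7 at 44.6 (CTRL 1), 39.9 (CTRL 2), 59.8 (KO 1) and 59.8 (KO 2) FPKM. Their log2 fold changes were 0.58 ± 0.069 and 0.49 ± 0.072, and the KO libraries lay above the CTRL libraries in each. Mcm2, at 24.3 (CTRL 1), 22.4 (CTRL 2), 29.9 (KO 1) and 31.6 (KO 2) FPKM, had the smallest change of the 19 genes that rose, 0.38 ± 0.070 (SE). The order of the subunits kept its ends in both groups, with Mcm2 lowest (mean of 23.4 in CTRL and 30.7 in KO) and Mcm6 highest (64.7 and 94.8), a span of 2.77 times in CTRL and 3.08 times in KO.

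Mcm10, which binds the activated helicase, and Cdc45, a subunit of it, were less abundant. Mcm10 was at 2.74 (CTRL 1), 2.38 (CTRL 2), 4.52 (KO 1) and 5.76 (KO 2) FPKM and Cdc45 at 7.33 (CTRL 1), 5.33 (CTRL 2), 11.2 (KO 1) and 10.7 (KO 2) FPKM, with log2 fold changes of 0.78 ± 0.14 and 0.72 ± 0.14 (SE). Neither overlapped between the groups, although KO 2 was 1.27 times KO 1 for Mcm10 and CTRL 1 was 1.37 times CTRL 2 for Cdc45. The 4 subunits of GINS, which join Cdc45 and the ring into the active helicase, had changes of both signs. Gins2 rose, at 7.55 and 6.70 FPKM in the CTRL libraries and 10.3 and 12.3 FPKM in the KO libraries (0.59 ± 0.11, SE, adjusted p = 0.0430), while Gins3 was at 4.11 (CTRL 1), 3.38 (CTRL 2), 3.15 (KO 1) and 3.23 (KO 2) FPKM, with both KO libraries below both CTRL libraries (-0.18 ± 0.11, adjusted p = 0.332). The other GINS genes had log2 fold changes of 0.37 (Gins1, groups overlapping) and 0.14 (Gins4), and neither passed. Gins2 shares 67.3% of its exon length with Gse1 on the opposite strand, which was between 18.9 and 19.9 FPKM in the 4 libraries.

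None of the 8 polymerase and primase genes passed the threshold, with adjusted p from 0.101 to 0.584. All 8 log2 fold changes were positive, against 46.2% of all genes tested. In 7 both KO libraries lay above both CTRL libraries, against 29.0% of all genes tested. Without adjustment, 4 of the 8 were higher at p under 0.05 in limma, as were 1855 of the 11399 genes tested. Pold2, a subunit of polymerase delta and the most abundant of them, was at 25.6 (CTRL 1), 25.1 (CTRL 2), 30.8 (KO 1) and 28.0 (KO 2) FPKM (0.20 ± 0.070, SE). Prim1, the catalytic primase subunit, had the highest change, 0.40 ± 0.13, at 15.4 and 11.8 FPKM in the CTRL libraries and 17.6 and 18.7 FPKM in the KO libraries. Pold1, the catalytic subunit of polymerase delta, had the lowest, 0.056 ± 0.065, and its groups overlapped at 18.1 (CTRL 1), 17.4 (CTRL 2), 18.0 (KO 1) and 19.0 (KO 2) FPKM. Pola1, whose promoter is shown above, was at 4.84 and 3.61 FPKM in the CTRL libraries and 5.03 and 5.36 FPKM in the KO libraries, with a change of 0.26 ± 0.14 (adjusted p = 0.250). The standard errors in this group ran from 0.065 to 0.14.

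Among the 8 genes of the clamp, the clamp loader and single-strand binding, 1 rose (12.5%), against 5.1% of all genes tested. Rpa2 (ENSMUSG00000028884, chr4:132768332-132778752), a subunit of the RPA complex that covers unwound strands, was at 17.7 (CTRL 1), 17.2 (CTRL 2), 26.1 (KO 1) and 26.9 (KO 2) FPKM. The libraries within each group differed by less than 1 FPKM, and the log2 fold change was 0.57 ± 0.060 (SE, adjusted p = 0.0306). Its partner Rpa1 was more abundant, at 45.9 and 47.6 FPKM in the CTRL libraries and 53.0 and 55.0 FPKM in the KO libraries, and had a change of 0.20 ± 0.056 (adjusted p = 0.0771).

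Pcna (chr2:132249162-132253314), the sliding clamp and the most abundant gene of the list, was at 222 (CTRL 1), 194 (CTRL 2), 250.3 (KO 1) and 239.9 (KO 2) FPKM. Both KO libraries lay above both CTRL libraries, but the CTRL libraries differed by more than CTRL 1 did from KO 2, and the change of 0.24 ± 0.081 (SE) had an adjusted p of 0.109. Pcna made up 21.5% and 21.2% of the summed FPKM of the list in the CTRL libraries and 19.3% and 18.6% in the KO libraries. None of the 5 clamp loader (RFC) genes passed. Rfc1, the large subunit, was at 15.7 (CTRL 1), 14.4 (CTRL 2), 13.6 (KO 1) and 13.5 (KO 2) FPKM, with the KO libraries at the 2 lowest values (-0.14 ± 0.072, adjusted p = 0.238), and Rfc3 had the highest change of the loader, 0.36 ± 0.10 (adjusted p = 0.0738).

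Both genes of Okazaki fragment maturation rose, against 5.1% of all genes tested. Fen1 (chr19:10199132-10204169), the nuclease that trims the flaps between fragments, was at 15.7 (CTRL 1), 13.7 (CTRL 2), 21.4 (KO 1) and 21.1 (KO 2) FPKM. Lig1 (chr7:13277283-13311433), the ligase that seals them, was at 19.0 (CTRL 1), 14.7 (CTRL 2), 25.5 (KO 1) and 28.4 (KO 2) FPKM. In both genes the lower KO library stood 1.35 times (Fen1) and 1.34 times (Lig1) above the higher CTRL library, with log2 fold changes of 0.51 ± 0.083 and 0.65 ± 0.13 (SE) and adjusted p of 0.0379 and 0.0466. Of the 100-base stretches of Fen1, 71.9% also occur in another annotated gene, Gm10143, so its reads may have been split in the counting.

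Both subunits of CAF-1, the chaperone that deposits histones behind the fork, rose, against 5.1% of all genes tested. Chaf1b (chr16:93883901-93906115) was at 12.8 (CTRL 1), 11.6 (CTRL 2), 19.7 (KO 1) and 22.1 (KO 2) FPKM and Chaf1a at 6.65 (CTRL 1), 5.42 (CTRL 2), 9.56 (KO 1) and 9.22 (KO 2) FPKM. Their log2 fold changes were 0.73 ± 0.088 and 0.57 ± 0.11 (SE), and the groups of neither overlapped. Chaf1a shares 52.5% of its exon length with Ubxn6 on the opposite strand, which was at 42.0 and 44.8 FPKM in the CTRL libraries and 42.7 and 42.1 in the KO libraries. The fork checkpoint genes did not pass the threshold. Clspn, the adaptor for the checkpoint kinase Chk1, was at 4.66 and 3.68 FPKM in the CTRL libraries and 6.16 and 6.87 FPKM in the KO libraries (0.54 ± 0.12, adjusted p = 0.0563). Tipin, a fork protection factor, was at 23.2 (CTRL 1), 17.7 (CTRL 2), 23.9 (KO 1) and 24.0 (KO 2) FPKM, where only CTRL 2 stood apart (0.23 ± 0.13, adjusted p = 0.263).

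Of the 5 nucleotide supply genes, 3 rose, against 5.1% of all genes tested. All 5 had both KO libraries above both CTRL libraries, against 29.0% of all genes tested. Ribonucleotide reductase, which makes deoxynucleotides from ribonucleotides, rose in both its subunits of S phase. Rrm2 (ENSMUSG00000020649, chr12:24708241-24714146) was at 27.1 (CTRL 1), 21.9 (CTRL 2), 42.4 (KO 1) and 40.0 (KO 2) FPKM and Rrm1 (chr7:102441695-102469771) at 25.2 (CTRL 1), 21.1 (CTRL 2), 36.7 (KO 1) and 35.2 (KO 2) FPKM. Their log2 fold changes were 0.73 ± 0.11 and 0.62 ± 0.10 (SE), and their mean FPKM lay close together in each group, 24.5 and 23.1 in CTRL and 41.2 and 35.9 in KO. Tk1, the thymidine kinase of the salvage route, was at 21.8 (CTRL 1), 18.9 (CTRL 2), 29.7 (KO 1) and 28.8 (KO 2) FPKM, with a change of 0.51 ± 0.085 (adjusted p = 0.0387). Tyms, which makes thymidylate, and Dut, which removes dUTP, missed the threshold with adjusted p of 0.0622 and 0.0907. Dut, with the lowest change of the group (0.29 ± 0.087), was at 18.8 (CTRL 1), 16.3 (CTRL 2), 22.0 (KO 1) and 21.1 (KO 2) FPKM.

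The 2 CTRL libraries also differed from each other. CTRL 1 was above CTRL 2 in 43 of the 45 genes, with a median difference of 0.18 on the log2 scale, against 53.4% of all genes tested and a median of 0.011. KO 1 was above KO 2 in 20 of the 45, with a median difference of -0.013, against 5291 of the 11399 genes tested and a median of -0.011. The median deviation from the mean of the 4 libraries was -0.12 and -0.30 in CTRL 1 and CTRL 2, and 0.20 and 0.23 in KO 1 and KO 2. With any of the 4 libraries left out, so that a group held 1 library, none of the 45 genes passed the threshold (0 or 1 gene of all tested passed in either direction), 42 changes were positive, and the median ran from 0.26 without CTRL 2 to 0.49 without CTRL 1.

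**Figure D3:**
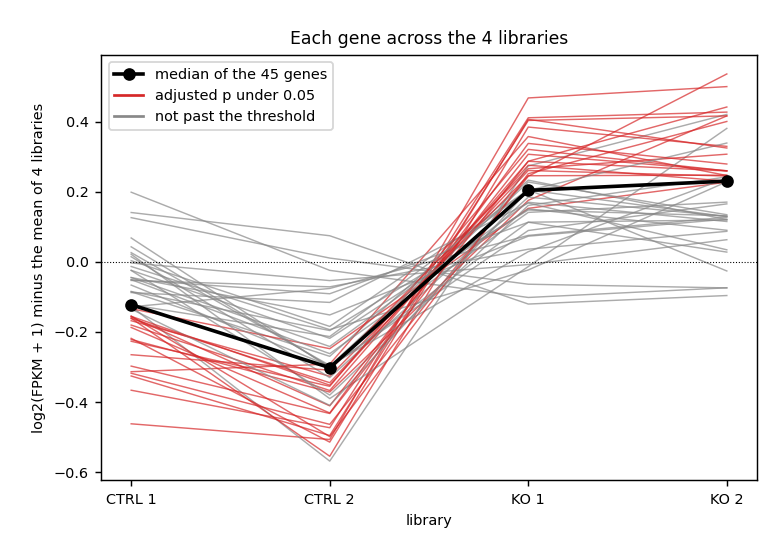
Log2(FPKM + 1) of each of the 45 genes minus its mean over the 4 libraries (y axis) in each library (x axis), with the genes past an adjusted p of 0.05 in red, the others in gray and the median in black. The median lies at -0.12 and -0.30 for the CTRL libraries and at 0.20 and 0.23 for the KO libraries.

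Markers of other cells also differed between libraries. The 6 myeloid markers, all above 0, summed to 246 and 157 FPKM in CTRL 1 and CTRL 2 and to 289 and 126 FPKM in KO 1 and KO 2, and the 5 plasma cell and germinal centre markers to 93.4, 71.6, 117 and 80.9. The 6 B cell markers summed to 22.2, 18.8, 32.8 and 18.8 FPKM, and the 5 erythroid markers with a value to 22.7, 4.16, 38.5 and 11.4, with Hbb-bs at 0 in 3 libraries and at 0.133 in KO 1. The CD8 T cell markers Cd8a and Cd8b1 summed to 8.49 to 11.4 FPKM, the 3 NK cell markers to 2.39 to 3.43 and the 4 T cell markers to 1177 to 1333. The myeloid, plasma cell, B cell and erythroid sums were higher in library 1 than in library 2 of both groups. The summed FPKM of the replication list had the same order in both groups (1029 against 914 in CTRL and 1300.2 against 1293 in KO). Without Pcna that order held in CTRL (807 against 721) and was reversed in KO (1049.8 against 1053.1). Gene by gene, 43 of the 45 were higher in CTRL 1 than in CTRL 2 and 20 of the 45 in KO 1 than in KO 2. No marker gene of any list passed the threshold between KO and CTRL, and the part of these cells in the values of the list was not tested.

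Other genes of the same processes were counted for comparison, beside the 5.1% of all genes tested that were higher and the 4.65% that were lower. Of 14 further licensing and origin firing genes, 2 rose (14.3%) and none fell, with a median log2 fold change of 0.13. They were Ticrr and Topbp1, which act in origin firing, at 2.64 and 2.30 FPKM in the CTRL libraries and 4.45 and 4.09 FPKM in the KO libraries (0.60 ± 0.11, SE) and 24.5 and 24.4 FPKM in the CTRL libraries and 30.0 and 31.7 FPKM in the KO libraries (0.32 ± 0.060). Of 20 further fork and elongation genes, 2 rose (10.0%) and none fell, with a median of 0.13. Top2a, the topoisomerase of chromosome separation, was at 31.4 and 24.5 FPKM in the CTRL libraries and 57.6 and 58.5 FPKM in the KO libraries (1.04 ± 0.12), and Asf1b, a histone chaperone, had a change of 0.81 ± 0.14.

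Further nucleotide synthesis genes were counted as well. None of 28 further genes of purine, pyrimidine and folate metabolism rose and 1 fell (3.57%), with a median of -0.040. Of all genes tested, 5.1% were higher and 4.65% lower, so this single call does not stand out from all genes. The gene that fell was Rrm2b, the small ribonucleotide reductase subunit known to be induced by p53, at 8.16 (CTRL 1), 8.05 (CTRL 2), 5.16 (KO 1) and 6.04 (KO 2) FPKM (-0.47 ± 0.10, SE, adjusted p = 0.0481). The KO libraries held the lowest values of Rrm2b and the highest of Rrm2, the alternative small subunit.

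Among 12 regulators of S phase entry, 6 rose and none fell, against 5.1% and 4.65% of all genes tested, with a median of 0.46. E2f1, an activating E2F factor, was at 4.39 (CTRL 1), 3.77 (CTRL 2), 7.73 (KO 1) and 7.43 (KO 2) FPKM (0.76 ± 0.10, SE), E2f8 changed by 0.79 ± 0.11 and the cyclin Ccna2 by 0.90 ± 0.15. Of 18 mitotic genes, 13 rose and none fell, against the same shares, and the median was 0.87. All 18 had both KO libraries above both CTRL libraries, against 29.0% of all genes tested. Aurka and Plk1, kinases of mitosis, had changes of 1.12 ± 0.10 and 1.08 ± 0.16, and Cdk1, the kinase that drives entry into mitosis, of 1.06 ± 0.17. Mki67, which encodes the division marker Ki-67, was at 31.8 (CTRL 1), 24.3 (CTRL 2), 45.1 (KO 1) and 44.7 (KO 2) FPKM (0.67 ± 0.13, adjusted p = 0.0433). The mitotic genes were also higher in CTRL 1 than in CTRL 2 in all 18 cases, with a median difference of 0.44.

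**Figure D4:**
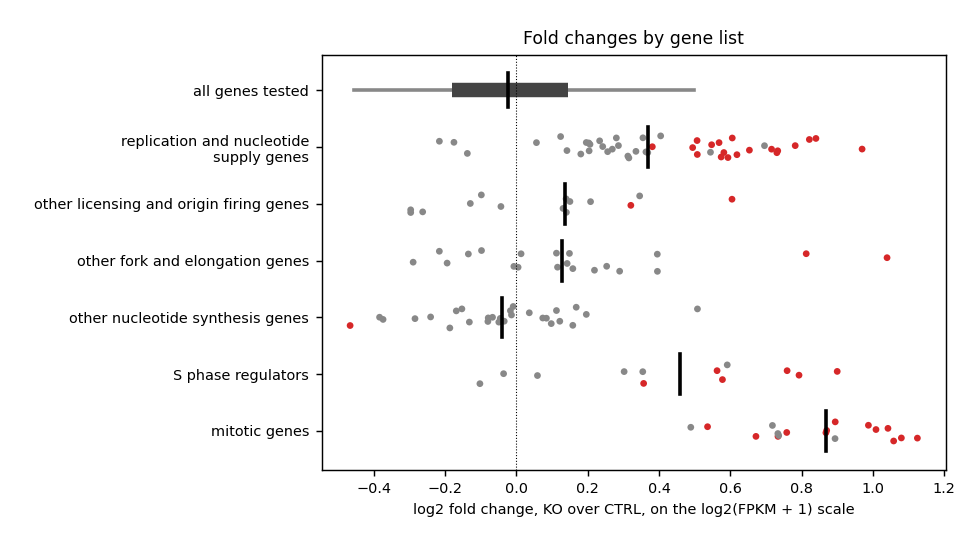
Log2 fold change of KO over CTRL on the log2(FPKM + 1) scale for the 45 replication and nucleotide supply genes and the 5 further lists, 1 point per gene, red where the adjusted p was under 0.05, with the median as a black line. The top row gives all 11399 genes tested as the median, the middle range between quartiles (thick) and the 5th to 95th percentiles (thin), and the replication list has its median at 0.37.

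Counting of 8 of the 45 genes was uncertain, since 10% or more of their exon length or of their 100-base stretches is shared with another gene (Chaf1a, Fen1, Gins2, Orc2, Pcna, Rfc2, Rfc4 and Rfc5). Of these, 3 rose, and of the other 37 genes 16 rose and none fell, against 5.1% higher and 4.65% lower of all genes tested. The list was spread over 16 chromosomes, with at most 7 genes on 1 chromosome.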

How the data were processed

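RNA-seq of sorted splenic Treg cells gave 2 CTRL and 2 KO libraries, grouped by genotype as labelled. The deposited values were FPKM, which the authors made after mapping with HISAT2 2.2.1 to mm10 and counting with featureCounts 2.0.1 (edgeR 3.34.0 in their own comparison). The gene lengths, the annotation version and the use of strand were not stated. Columns named WT were read as the CTRL libraries of the same number.

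KO was compared with CTRL with limma 3.58.1 (R 4.3.3, lmFit and eBayes with a trend) on log2(FPKM + 1), over the 11399 genes that reached an FPKM of 1 in 2 or more libraries, as two-sided tests with Benjamini-Hochberg adjustment over all genes tested and a threshold of 0.05. Fold changes on this scale understate those of weak genes. With 2 libraries per group, each a pool of mice (2 by the series description, possibly more by the methods), p-values measure the spread between pools. The values of 19887 of the 19888 genes above 0 in any library were whole multiples of the worth of 1 read (99.995%, within 0.02 reads). The smallest whole numbers that fitted each gene gave the least reads per library (29988267, 31909253, 32533345 and 32686764). The gene counts behind limma-voom, an alternative, are these least reads, which can lie below the true count of a gene.

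Positions, exon lengths and overlaps came from GENCODE vM21 (GRCm38), and promoter windows from RefSeq (GRCm38.p6). Alternatives changed the pseudocount, the filter, the scaling, the variance model, the replicate block, the exon length trend and the libraries used. The code was tested on simulated data. Genes named with values were Setd2, those past the threshold, in each role the most abundant and those with the highest and lowest change, the gene nearest to the level threshold, and at most 3 genes per further list and direction with Mki67 and E2f1. Other members named, Orc3 to Orc5 and the overlapping genes were added after their values were seen. The genes and lists were chosen with earlier results of these data known. Comparisons across other tissues or assays were not analysed here.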

Additional observations from a re-analysis of the deposited data

How the results depend on the processing

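Each replication gene kept the sign of its change in every alternative that tested it. Between 18 and 22 of them were higher in KO with a pseudocount of 0.1, a mean FPKM above 5 (43 genes left), median-ratio, equal-sum or quantile scaling, robust variances, limma-voom or the exon length trend removed. Without the variance trend 12 were higher, and without the filter 0 (32 at an unadjusted p under 0.05 in limma). No replication gene was lower under any alternative, and the cause of these shifts was not tested. Over all genes, the count higher in KO was 581, 315 without the variance trend and 0 without the filter. The count lower in KO was 530, 0 without the filter, 1024 of 11398 in limma-voom (867 higher) and 321 with the exon length trend removed. Leaving libraries out in turn left 1 library in a group, assumed to vary like the other group. The median log2 fold change of the replication genes then ran from 0.26 to 0.49. In the fit with a replicate block 22 replication genes were higher, and 968 genes were higher and 805 lower over all. The labels tie the libraries of both groups only by number, and whether same-numbered libraries were prepared together was not stated. Over 11399 genes the difference of library 1 from library 2 in CTRL was set against that in KO. These differences correlated at 0.342 (Pearson's r) and 0.055 (Spearman's rho). The 2 libraries per group limited precision, and the standard errors of the replication genes had a median of 0.088.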
